A study of Mus musculus with 32 samples.

Results

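The cytoplasmic ribosomal protein genes of the mouse were examined as RNA targets of IGF2BP3, an RNA-binding protein, in 2 leukemic cell populations. Members were chosen by gene symbol in both RNA-seq tables (Rpl or Rps followed by a number, with an optional a, l or x and a further number, or Rplp0 to Rplp2), which left out pseudogenes with a -ps symbol and the Rps6ka kinases. The rule gave 82 genes among 26560 genes of the Lin- table and 25887 genes of the CD11b+ table, 48 of the large subunit (Rpl) and 34 of the small subunit (Rps). Rpl24 and Rpl39l matched in the CD11b+ table alone and Rpsa did not match by its letters, so none of them was counted. Of the members, 78 are annotated as protein coding and 4 as pseudogenes (Rpl6l, Rps12l1, Rps3a2 and Rps4l).

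Enhanced crosslinking and immunoprecipitation (eCLIP) maps where a protein touches RNA. IGF2BP3 was precipitated from UV-crosslinked cells, WT/MLL-Af4 by the study's own account, and the bound fragments were sequenced, each library with its own size-matched input (smInput). Lin- cells were lineage-depleted bone marrow cells that received the MLL-Af4 fusion oncogene on the MSCV-MLL-flag-Af4 retrovirus and were selected with G418 in culture. CD11b+ cells were enriched with a magnet on CD11b from the splenic tumors of mice transplanted with MLL-Af4 transduced cells. There were 6 Lin- eCLIP libraries (1 to 3 biological, 4 to 6 technical) and 4 CD11b+ eCLIP libraries (1 and 2 biological, 3 and 4 technical). RNA-seq of each cell type had 3 WT and 3 I3KO libraries, all with MLL-Af4, where I3KO is a germline deletion of Igf2bp3 that arose from a floxed allele through leaky Vav1-Cre activity. The RNA-seq entered here only as the authors' mean of normalized counts per gene over both genotypes, so no genotype difference was tested. All these models rest on an overexpressed retroviral fusion gene, and the source of each library by animal or culture is not given beyond the word biological or technical.

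Ribosomal proteins assemble with ribosomal RNA into the subunits that translate mRNA, and their genes are among the most strongly transcribed of a growing cell. Their mRNAs start with a pyrimidine tract, the TOP motif, through which mTOR signalling sets their translation. Many of their introns hold small nucleolar RNAs (snoRNAs), short stable RNAs that are released from the spliced intron and guide the modification of ribosomal RNA. IGF2BP3 is an oncofetal protein with KH and RRM domains that binds mRNAs, often at CA-rich elements, and affects their stability and translation.

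The places where IGF2BP3 peaks recurred on these genes were of 3 kinds: the ends of introns, coding or untranslated exons, and snoRNA genes inside introns. The first set below shows the 3′ end of introns at which peaks recurred in 6 to 10 of the 10 libraries. Sequences were read from the GRCm38 (mm10) genome and are written 5′ to 3′ on the transcribed strand, and the capitals mark the AG that ends the intron. The peak centres lay 34, 15, 17, 13, 21, 13 and 19 nt upstream of the intron end, in this order.
Rpl10a (10 libraries), chr17:28329350-28329379, plus strand: tgttttctcccctcccaaacgcAGgctcaa
Rps18 (9 libraries), chr17:33952586-33952615, minus strand: aatagcccaaacttttgacctcAGggcgtg
Rps6 (8 libraries), chr4:86854950-86854979, minus strand: gtgattgctcatctggatttttAGgtaaga
Rpl10a, further intron (7 libraries), chr17:28330501-28330530, plus strand: atcctgagtgtctgtgtcttctAGctaaga
Rpl28 (7 libraries), chr7:4794040-4794069, plus strand: tgattcctaggctttccttaccAGgtcagc
Rpl34 (6 libraries), chr3:130729145-130729174, minus strand: gctacttacaatctcccttcctAGgtctcg
Rps24 (6 libraries), chr14:24495751-24495780, plus strand: ctgaatttctttctccatttacAGccaaag

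The exonic set shows the 30 nt around the centre of 6 exon sites that recurred in 4 to 8 libraries, 3 in coding sequence, 2 in the 5′ untranslated region (UTR) and 1 in the 3′ UTR. A region counted where any annotated transcript of the gene had it. None of these sites had a peak that held ACACAC or CACACA, so they are written in lower case throughout.
Rps29, coding (8 libraries), chr12:69158712-69158741, minus strand: cacggtctgatccgcaaatacgggctgaac
Rps21, coding (6 libraries), chr2:180257653-180257682, plus strand: agtttgtggacctgtacgtgccgcggaaat
Rplp0, coding (5 libraries), chr5:115563341-115563370, plus strand: ccaccactgctgcccctgcggctgctgcag
Rps27a, 5′ UTR (5 libraries), chr11:29547779-29547808, minus strand: agtggcgctacgcgtcgctctcacgggtgt
Rplp2, 5′ UTR (4 libraries), chr7:141447664-141447693, plus strand: acgccgccgaggtcgcacgcgtgaggtctg
Rps9, 3′ UTR (5 libraries), chr7:3706611-3706640, plus strand: cagcctcactttgtccccttattctgttct

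The last set shows both ends of 3 snoRNAs that carried filtered peaks in all 10 libraries, with the letters TGATGA (the box C motif of C/D snoRNAs) in the first 30 nt and CTGA (box D) in the last 30 nt in capitals.
Gm25091 in Rpl21, first 30 nt, chr5:146834834-146834863, plus strand: aacttaaTGATGAttgtctgtttgattgct
Gm25091, last 30 nt, chr5:146834875-146834904, plus strand: gaaaaccacatttcaccggctCTGAgagtt
Snord21 in Rpl5, first 30 nt, chr5:107904555-107904584, plus strand: gccaaTGATGAcaccacactaactgagcag
Snord21, last 30 nt, chr5:107904619-107904648, plus strand: tcattgtttcaagacgggaCTGAaggcggc
Snord15b in Rps3, first 30 nt, chr7:99479678-99479707, minus strand: cttcagTGATGAcacgatgacgagtcagaa
Snord15b, last 30 nt, chr7:99479563-99479592, minus strand: gattgatttagaggcatttgtCTGAgaagg
On the transcribed strand, TGATGA was present in the first 30 nt of 20.2% of the 1887 annotated snoRNA and scaRNA genes and CTGA in the last 30 nt of 55.3%. Among the 55 snoRNAs inside members that had a peak in any library, these motifs were held by 22 and 41. Of the 7 with a filtered peak in 9 or 10 libraries, 4 held TGATGA and 7 held CTGA at these places.

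The deposited peak lists held 4040 to 10054 eCLIP peaks per library after removal of peaks shared with the input, and 217 to 1885 smInput peaks, with the Lin- smInput 5 library far below the others. Read depth per library is unknown, and yield can be judged by peak numbers alone. CD11b itself (Itgam) had a mean of only 16.97 normalized counts in CD11b+ RNA-seq and overlaps another gene, Gm49368, on its strand. Other myeloid markers there ranged from 107.7 for Ly6g, a neutrophil marker, and 2474 for Adgre1, a macrophage marker, to 15008 for Csf1r and 72146 for Lyz2. The progenitor markers Kit, Cd34 and Flt3 stood at 6974, 9052 and 9396 in Lin- cells and at 673, 1291 and 389.7 in CD11b+ cells, and the T cell marker Cd3g was at 1.15 and 4.87. The 2 tables were normalized separately, so these levels describe each cell type on its own.

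Ribosomal protein mRNAs were abundant in both cell types. Their median mean count was 9502 in Lin- cells, against 54.7 over all genes of the table, and 10244 in CD11b+ cells, against 47.3. Their median rank was 422 of 26560 genes in Lin- and 267.5 of 25887 genes in CD11b+ cells, and 76 of 82 members had a mean of at least 1000 in each. They made up 3.40% of all normalized counts in Lin- and 4.17% in CD11b+ cells. In bulk RNA, more cells with a transcript and more of it per cell cannot be told apart.

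In Lin- cells the 5 highest mean counts were those of Rpl4 at 50958, which lines the tunnel through which the new protein leaves, Rplp0 at 36534, the base of the stalk that recruits elongation factors, Rps3 at 31383, Rpl8 at 31382 and Rpl3 at 29151. In CD11b+ cells the highest were those of Rplp0 at 36356, Rpl4 at 24211, Rps6 at 20578, the target of S6 kinase, and Rpl3 at 19791. Per kb of annotated exon, the members ranged from 1.64 to 33319 normalized counts in Lin- cells, with a median of 10461, and from 1.08 to 31826 in CD11b+ cells, with a median of 10382. Rplp1 had the highest level per kb in Lin- cells (33319), with Rpl4 just below it (33133).

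The lowest mean in Lin- cells was that of Rps10, at 2.01 normalized counts (rank 20655), whereas it was 2478 in CD11b+ cells (rank 1744). Rps10 lies on chr17:27630418-27636669 and overlaps the readthrough gene RPS10-NUDT3 on the same strand. The gene had filtered eCLIP peaks in 6 of 6 Lin- libraries, 12 of them in introns and 4 in coding sequence. Rpl13a, with means of 2016 in Lin- and 351 in CD11b+ cells, also overlaps a gene on its strand, Gm45713. The part of these overlaps in the low counts was not tested. The remaining low members were Rps4l (61.3 and 1.02), Rpl3l (68.0 and 67.9), the striated-muscle form of Rpl3, Rpl21 (840 and 754), Rpl29 (985 in Lin-) and Rpl22l1 (723 in CD11b+).

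Genes named as variants of another member had lower levels per kb of exon than their namesake in Lin- cells. Rpl3l stood at 42.5 normalized counts per kb against 21577 for Rpl3, and Rps4l at 65.0 against 15882 for Rps4x. Rpl7l1 stood at 894 against 12247 for Rpl7, and Rps27l at 2602 against 16472 for Rps27. The gap was smallest for Rpl22l1, at 2871 against 3626 for Rpl22, and Rpl6l, at 9460 against 12612 for Rpl6. Rpl6l, Rps12l1, Rps3a2 and Rps4l are processed copies of their parents, so how reads were divided between them is uncertain. In peaks outside snoRNA genes, Rpl7l1 and Rpl7 were each seen in 5 of 6 Lin- libraries, Rpl22l1 in 3 and Rpl22 in 5, Rps27l in 3 and Rps27 in 2, and Rps12l1 and Rps4l in none.

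IGF2BP3 peaks were found on most of these genes in Lin- cells and on fewer in CD11b+ cells. At least 1 filtered peak was assigned to 75 of 82 members in Lin- and to 51 of 82 in CD11b+ cells, where 26.5% and 25.6% of all genes of the tables had one. Among genes whose mean reached 1000, the share was 76.5% in Lin- and 68.4% in CD11b+ cells, and the members above this level stood at 71 of 76 and 47 of 76. Peaks were seen on 50 members in both cell types, on 25 in Lin- alone and on Rpl6 in CD11b+ alone, where 19.4%, 10.1% and 8.42% of the genes in both tables fell into these classes. Among genes whose mean reached 1000 in both tables, the shares were 66.4%, 16.9% and 7.53%, and the members above this level stood at 44, 24 and 1 of 73. The Lin- counts rest on 6 libraries and the CD11b+ counts on 4. The 6 members without a filtered peak included Rpl30, Rps12, Rps12l1, Rps20 and Rps4l. Outside snoRNA genes the counts were 61 of 82 in Lin- and 36 of 82 in CD11b+ cells, where 26.2% and 25.2% of all genes and 75.7% and 67.4% of genes whose mean reached 1000 had such a peak. The members above this level stood at 58 of 76 (76.3%) and 34 of 76 (44.7%), so that outside snoRNA genes the Lin- share lay at the level of other well-expressed genes. By subunit, 45 of 48 large and 30 of 34 small subunit genes had a filtered peak in Lin- cells, and 33 of 48 and 18 of 34 in CD11b+ cells.

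**Figure D1:**
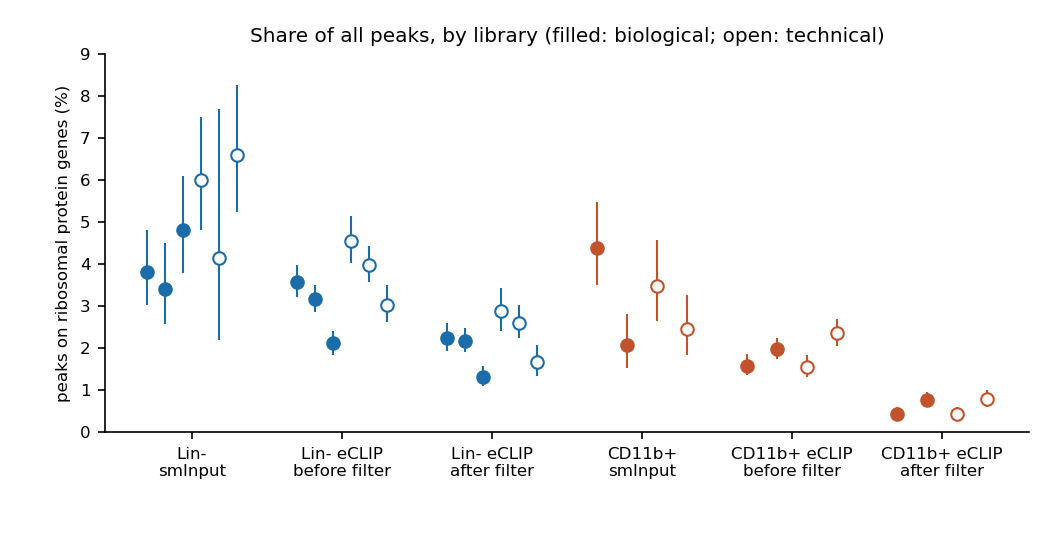
Percent of all peaks of a library that lie on the 82 ribosomal protein genes, for smInput and for eCLIP before and after the smInput filter; points are libraries (filled biological, open technical) and bars are 95% Wilson intervals. After the filter, the 6 Lin- libraries sit between 1.30% and 2.87% and the 4 CD11b+ libraries between 0.422% and 0.776%.

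The share of filtered peaks on ribosomal protein genes was 2.24%, 2.17% and 1.30% in the biological Lin- libraries 1 to 3 and 2.87%, 2.60% and 1.66% in the technical libraries 4 to 6. It was 0.434% and 0.766% in the biological CD11b+ libraries and 0.422% and 0.776% in the technical ones. The groups did not overlap. The lowest Lin- value had a 95% Wilson interval of 1.08 to 1.56% and the highest CD11b+ value one of 0.597 to 1.01%, which cover counting error only. Over biological libraries the means were 1.90% ± 0.524 (SD, n = 3) and 0.600% ± 0.235 (SD, n = 2), a difference of 1.30 percentage points (two-sided exact permutation test, p = 0.2, adjusted over 7 tests 0.28). With 3 against 2 libraries this test cannot go below 0.1.

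Which part of the gene carried the peaks separated eCLIP from input. In smInput, 536 of 13762 peaks lay on ribosomal protein genes, and 528 of these were centred in snoRNA genes. The other 8 were the same place in 8 input libraries, within an intron of Rpl38 at chr11:114669907-114669926. No input peak was centred in an exon of a member, 0 of 13762 peaks, which allows a share of up to 0.0218%. Inputs had fewer peaks than eCLIP and other peak calling settings, and the part of this in the difference was not tested. In eCLIP after the filter, Lin- libraries held 856 member peaks, of which 267 were in snoRNA genes, 323 in introns outside them and 266 in exons. The CD11b+ libraries held 201, of which 119 were in snoRNA genes, 59 in introns and 22 in exons.

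**Figure D2:**
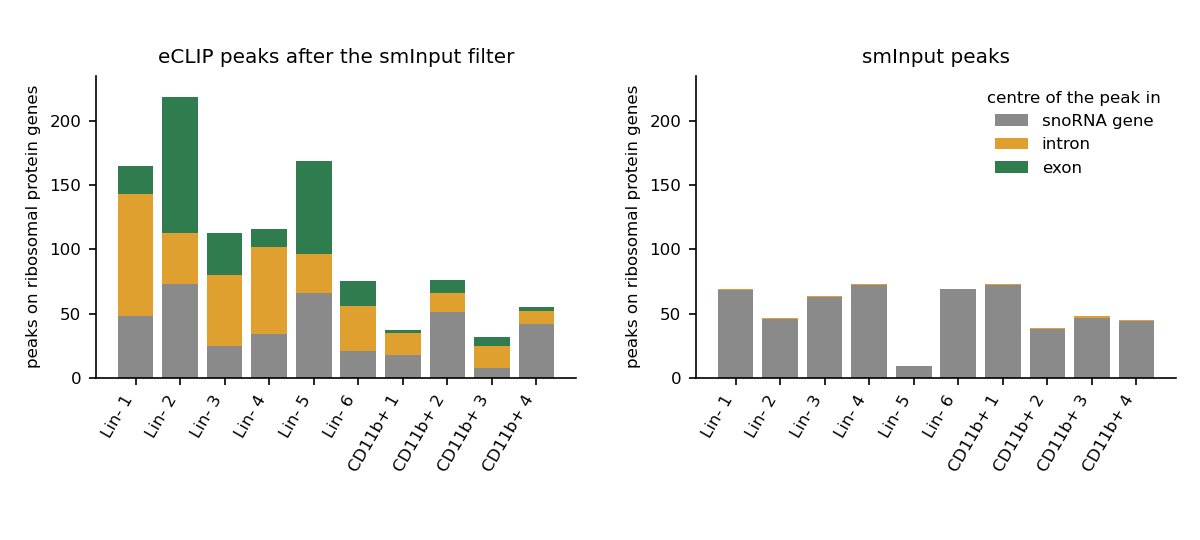
Number of peaks on ribosomal protein genes in each library, stacked by whether the peak centre lies in a snoRNA gene, an intron or an exon; left, eCLIP after the smInput filter, right, smInput. Exon peaks reach 105 and 73 in Lin- libraries 2 and 5 and are at 0 in all 10 inputs.

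Before the filter the members took a smaller share of peaks in eCLIP than in input. The share was 2.48% ± 0.846 in eCLIP and 3.70% ± 1.05 in smInput (SD, n = 5 biological pairs), lower in 5 of 5 pairs, with a mean difference of -1.22 percentage points (two-sided exact sign-flip permutation test, p = 0.0625, adjusted 0.109). With 5 pairs, 0.0625 is the smallest p this test can give. Without peaks centred in snoRNA genes, the direction turned: the share was higher in eCLIP in 5 of 5 pairs, by 0.816 percentage points (p = 0.0625, exact sign-flip permutation test). Of the peaks outside snoRNA genes, members took 0.984 to 1.94% in Lin- eCLIP, 0.181 to 0.310% in CD11b+ eCLIP and 0 to 0.141% in smInput libraries. Each input held at most 1 such member peak, among 217 to 1885 peaks in all. The eCLIP libraries held 5455 to 11771 peaks before the filter. Inputs were also deduplicated and called with other settings, whose part in this difference was not tested.

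The smInput filter removed 55.6% ± 14.8 of the CLIPper peaks on members and 13.1% ± 3.10 of those on other genes (SD, n = 5), a mean difference of 42.5 percentage points (exact sign-flip permutation test, p = 0.0625, adjusted 0.109). Nearly all removed member peaks were snoRNA peaks. Over all 10 libraries the filter took 1290 of 1676 member peaks in snoRNA genes and 1 of 672 member peaks elsewhere. On other genes it took 7670 of 11417 peaks in snoRNA genes (67.2%) and 4666 of 74240 elsewhere (6.29%). The filter drops peaks that overlap input peaks, and 528 of 536 input peaks on members were in snoRNA genes. Removal therefore restates where the inputs had peaks, and its test is no separate result.

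The place of exon peaks differed between libraries. Of the 266 exon peaks in Lin- cells, 183 were in coding sequence, 61 in 5′ UTRs, 19 in 3′ UTRs and 3 in noncoding exons. Libraries 2 and 5 held 80 and 53 of the Lin- coding peaks, while 9 of 22 exon peaks in library 1 and 5 of 14 in library 4 were coding. Of the 22 in CD11b+ cells, 7 were coding, 3 in 5′ UTRs and 12 in 3′ UTRs. An exon peak was found on 45 members in Lin- cells, where 9.36% of all genes and 30.1% of genes whose mean reached 1000 had one, and the members above that mean stood at 43 of 76 (56.6%). These counts take a peak in any library, and by library 12, 38, 26, 11, 37 and 14 members had an exon peak in Lin- libraries 1 to 6. In CD11b+ cells 11 members had one, against 5.61% of all genes and 20.1% of genes whose mean reached 1000, with 11 of 76 (14.5%) of the members above that mean.

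Lin- libraries 2 and 5 stood apart in this respect. Exon peaks on members numbered 22, 105 and 33 in the biological libraries 1, 2 and 3 and 14, 73 and 19 in the technical libraries 4, 5 and 6. Outside snoRNA genes, 72.4% of member peaks in library 2 and 70.9% in library 5 were exonic, against 17.1 to 37.5% in the other 4. Other genes moved the same way, with 39.4% and 42.3% in libraries 2 and 5 and 17.2 to 21.9% in the other 4. Of the member peaks outside snoRNA genes in library 5, 75.7% overlapped one of library 2, and 76.8% of those in library 4 overlapped one of library 1. The labels do not say which technical library repeats which biological one.

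Over biological libraries, 21.9% ± 17.02 of filtered peaks on members and 22.5% ± 9.54 on other genes were centred in exons (SD, n = 5), and the difference of -0.54 percentage points was far within its spread (SD 10.2, exact sign-flip permutation test, p = 0.9375, adjusted 0.938). Without snoRNA peaks the members had the higher exon share in 4 of 5 libraries and the mean difference was 13.4 percentage points (p = 0.1875, exact sign-flip permutation test). CD11b+ library 1 went the other way, with 10.5% on members, only 2 of 19 peaks, and 20.5% on other genes.

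Rps29, a zinc-binding protein of the small subunit head, had the largest number of coding peaks in Lin- cells, 20 peaks in 6 of 6 libraries, and no intron peak. Library 2 held 11 of these 20, centred between nt 181 and 274 of a 390 nt mRNA, so the number partly counts adjacent peaks of 1 library. Its main site, chr12:69158668-69158780, had a tallest peak of 28, 72, 71, 14, 134 and 31 reads in Lin- libraries 1 to 6. In CD11b+ cells it held 10 and 4 reads in libraries 2 and 3 and no peak in libraries 1 and 4. All Lin- libraries were above all CD11b+ libraries at this site, although read depth is not known and reads are not scaled.

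Rps21, a further small subunit protein, had coding peaks in 6 of 6 Lin- libraries at chr2:180257643-180257723, with 21, 93, 35, 7, 63 and 30 reads, and none in CD11b+ cells. Rplp0 had 17 coding peaks in Lin- cells, 7 of them in library 2, and its site at chr5:115563321-115563396 held 9, 81, 26, 0, 44 and 11 reads. These sites shared their order over libraries, with the highest reads in libraries 2 and 5. Rps15 had 10 coding peaks in Lin- cells, 6 of them in library 2, and Rps19 and Rpl18 had 9 each. Neither Rps15 nor Rpl18 had an exon peak in CD11b+ cells.

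The 5′ UTR carried the tallest peaks outside snoRNA genes of Rplp2, a further stalk protein, and of Rps27a, which is made as a fusion with ubiquitin. At the Rplp2 site the reads were 0, 164, 76, 0, 90 and 40 in Lin- libraries 1 to 6, and no CD11b+ library had a peak there. Rps27a had 15, 21, 5, 0, 16 and 0 reads in Lin- and 5 in CD11b+ library 2. Rps16 had a site across the end of the 5′ UTR and the start of the coding sequence at chr7:28350756-28350851, with 85, 53, 64 and 32 reads in libraries 2, 3, 5 and 6. Along the mRNA, 56 of 263 exon peaks that could be placed in Lin- cells were centred in the first 100 nt, and the median position was 220 nt on mRNAs of 712 nt (median).

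In the 3′ UTR, Rps9 had a site in 5 libraries at chr7:3706600-3706651, with 3 and 4 reads in Lin- libraries 1 and 4 and 4, 6 and 6 reads in CD11b+ libraries 1 to 3. Rpl7l1, a nucleolar relative of Rpl7, had 3 CD11b+ libraries with a 3′ UTR peak at chr17:46775215-46775270 and 4 to 9 reads. Rpl9 had 5 Lin- peaks and Rps19 had 2 Lin- and 2 CD11b+ libraries with a 3′ UTR peak. A 3′ UTR was counted where any annotated transcript of the gene had it. The Rps9 site was placed on a transcript of 1347 nt, and coding peaks of Rps9 on one of 751 nt. In Lin- libraries 1, 3 and 4 an Rpl9 3′ UTR peak was placed on a transcript of 2690 nt with 3 exons. Which of these transcripts the cells held was not tested. Among the 12 CD11b+ peaks in 3′ UTRs, none held more than 9 reads.

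Intron peaks lay mostly near intron ends. They were found on 56 members in Lin- cells, where 22.5% of all genes and 68.0% of genes whose mean reached 1000 had one. In CD11b+ cells they were found on 30 members, against 22.7% and 62.3%. The members above this mean stood at 53 of 76 (69.7%) in Lin- and 28 of 76 (36.8%) in CD11b+ cells. The Lin- share thus lay at the level of other well-expressed genes, and the CD11b+ share lay below it. Of 323 intron peaks in Lin- cells, 254 (78.6%) were centred within 50 nt of the 3′ splice site, with a median distance of 21 nt, and 257 (79.6%) overlapped an exon. In CD11b+ cells 30 of 59 (50.8%) lay within 50 nt of the 3′ splice site and 28 (47.5%) within 50 nt of the 5′ splice site. Over the introns of all annotated transcripts of the members, snoRNA bases included, bases within 50 nt of a 3′ splice site make up 7.86%. Peaks were placed in the shortest intron around their centre, so this is not the share expected of them.

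**Figure D3:**
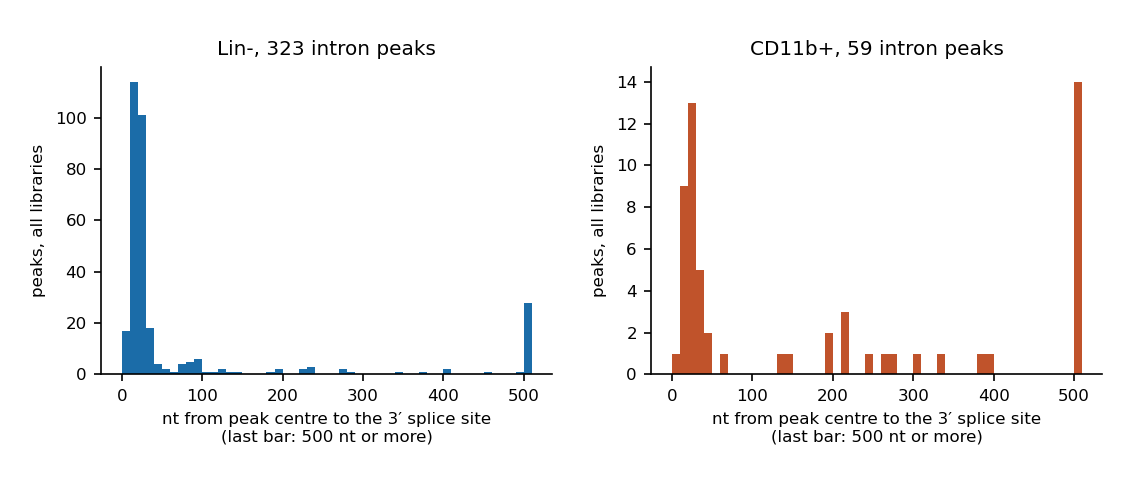
Number of filtered intron peaks on ribosomal protein genes by distance in nt from the peak centre to the end of the intron, in bars of 10 nt, all libraries of a cell type together. In Lin- cells 254 of 323 peaks lie in the first 50 nt, and in CD11b+ cells 30 of 59.

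The share near the 3′ splice site differed from other genes over all introns and not among short ones. Over biological libraries, 63.6% ± 16.5 of member intron peaks and 36.0% ± 25.8 of those on other genes were within 50 nt of a 3′ splice site (SD, n = 5), higher on members in 5 of 5 libraries (exact sign-flip permutation test, p = 0.0625, adjusted 0.109). This comparison was chosen after the data were seen. Among introns under 1000 nt the shares were 60.9% ± 16.98 and 61.0% ± 16.1, a difference of -0.14 percentage points with an SD of 3.67 (p = 0.875, adjusted 0.938, exact sign-flip permutation test). The median intron with a peak was 385 nt long on members and 723.5 nt on other genes in Lin- library 1, and 672 against 4919.5 nt in CD11b+ library 1.

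Rpl10a, the protein of the L1 stalk, had the most recurrent site outside snoRNA genes. Its intron site at chr17:28329272-28329383 held 71, 52, 37, 28, 33 and 28 reads in Lin- libraries 1 to 6 and 24, 15, 17 and 15 reads in CD11b+ libraries 1 to 4. It was the only one of 249 member sites outside snoRNA genes that had a peak in all 10 libraries. The lowest Lin- value, 28, was above the highest CD11b+ value, 24, although read depth is not known and reads are not scaled. Over its whole length Rpl10a had 22 intron and 6 coding peaks in Lin- cells.

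Rps18 had 18 intron peaks in Lin- cells, and its site at chr17:33952571-33952643 held 18, 12, 17, 8, 9 and 11 reads in Lin- and 5, 12, 0 and 7 in CD11b+ libraries. Rps6 held 27, 13, 12, 11, 8 and 4 reads in Lin- and 0, 0, 5 and 8 in CD11b+ libraries at chr4:86854926-86855010. At both sites the cell types overlapped in reads. Rps24 had a peak in every eCLIP library, and 1 of its sites was seen in more CD11b+ than Lin- libraries. That site at chr14:24495733-24495790 had a peak in 4 of 4 CD11b+ libraries with 10, 8, 5 and 4 reads and in 2 of 6 Lin- libraries with 18 and 8.

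Rps4x, the X-linked small subunit protein, differed in place, with its site at chrX:102189256-102189316 centred 911 nt before the end of a 926 nt intron, close to the 5′ splice site. It held 8, 26, 6, 0, 12 and 6 reads in Lin- and 6, 6, 6 and 0 in CD11b+ libraries. Rpl11, whose free protein binds MDM2, and Rpl34, Rpl41 and Rps23 had an intron site in 6 of 6 Lin- libraries and in no CD11b+ library. Their reads ranged from 3 to 22.

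Outside snoRNA genes, 23 members had a filtered peak in 6 of 6 Lin- libraries, among them Rpl8, Rpl9, Rpl10a, Rpl11, Rpl15, Rpl27, Rpl28, Rpl34, Rpl41, Rplp0, Rplp1, Rps6, Rps10, Rps14, Rps18, Rps19, Rps21, Rps23, Rps24, Rps26, Rps27a and Rps29. This was so for 2.94% of all genes and 10.9% of genes whose mean reached 1000, and for 22 of 76 members above this level. A further 15 had one in 5 libraries, against 2.41% of all genes and 8.88% of those whose mean reached 1000, among them Rpl7, Rpl18, Rpl19, Rpl22, Rps9, Rps15, Rps16 and Rps28. In CD11b+ cells Rpl10a and Rps24 had one in 4 of 4 libraries, and Rpl7l1, Rps4x, Rps9, Rps10, Rps18 and Rps19 in 3. Peaks in 4 CD11b+ libraries were found on 6.1% of all genes and 25.2% of genes whose mean reached 1000, and peaks in 3 on 4.22% and 13.1%, with 2 and 6 of 76 members above this level. Genes mutated in Diamond-Blackfan anemia in these lists include Rps10, Rps19, Rps24, Rps26 and Rpl11. By number of separate sites, snoRNA sites included, Rplp0 had 9 in Lin- cells and Rpl10a, Rps19 and Rps9 had 8 each. In CD11b+ cells Rpl4 had 6 and Rpl5 and Rpl7a 4 sites each, all of them in snoRNA genes, and Rps9 had 5, all outside them.

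**Figure D4:**
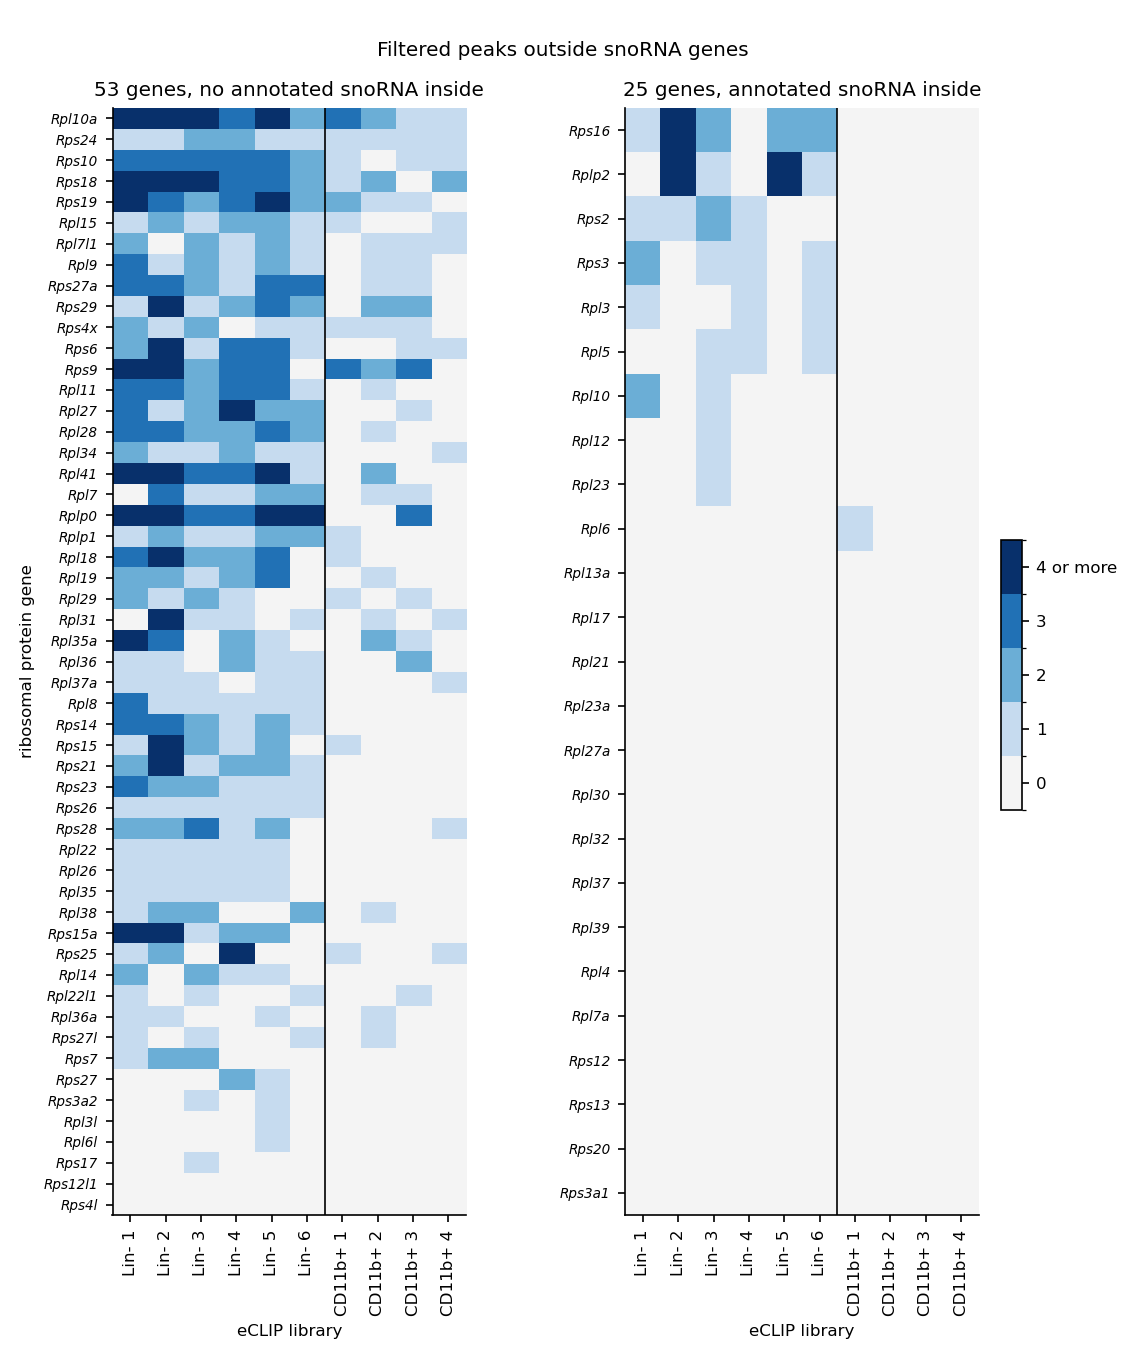
Number of filtered peaks outside snoRNA genes for 78 ribosomal protein genes (rows) in each eCLIP library (columns, Lin- left of the line and CD11b+ right of it), split into 53 genes without and 25 with an annotated snoRNA inside. Rows with peaks in nearly every Lin- library are frequent in the left panel, and 15 rows of the right panel have none at all.

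Members that host a snoRNA had few peaks anywhere else. Of 82 members, 28 contain 57 annotated snoRNA loci. In Lin- cells 9 of the 28 hosts and 52 of the 54 other members had a filtered peak outside snoRNA genes, and in CD11b+ cells 1 of 28 and 35 of 54. Per library, 7.14 to 28.6% of hosts and 59.3 to 83.3% of the other members had one in Lin- cells, and 0 to 3.57% against 22.2 to 37.0% in CD11b+ cells, so the ranges did not overlap. All 50 protein-coding members without a snoRNA had such a peak in Lin- cells.

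The hosts were not lower in mean count. The hosts' median mean count was 12572 in Lin- and 12217 in CD11b+ cells, that of the others 8579 and 9954. Rpl4, with the highest mean count in Lin- cells, Rps12 and Rpl17 were among the 18 hosts with no peak outside a snoRNA in any library. The tallest snoRNA peak of a host held 132 to 6414 reads in eCLIP before the filter (median 790.5), and the tallest peak of a member without snoRNA 3 to 134 (median 20). CLIPper judges a peak against the reads of its own gene, and the part of the snoRNA reads in this difference was not tested. Among other genes whose mean reached 1000, 22.6 to 43.3% of the 164 snoRNA hosts and 27.9 to 49.6% of the 6086 remaining genes had a peak outside snoRNA genes in the Lin- libraries, lower for hosts in 6 of 6.

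The snoRNAs differed in how often the input also had a peak. Of 55 snoRNAs with a peak, 36 had a peak in at least 5 of 10 smInput libraries and 13 had a filtered peak in at least 5 of 10 eCLIP libraries. Among these 13, 8 had no input peak in any library. Before the filter, 48 of the 55 were called in all 10 eCLIP libraries. The 10 with a Snora symbol, the H/ACA class that guides pseudouridylation, all had peaks in at least 5 inputs and none kept a filtered peak in 5 eCLIP libraries. Of the 21 with a Snord symbol, the C/D class that guides 2′-O-methylation, 11 had peaks in at least 5 inputs and 8 had filtered peaks in at least 5 eCLIP libraries. Before the filter, 9 of the 10 Snora and 20 of the 21 Snord were called in all 10 eCLIP libraries. The filter drops peaks that overlap input peaks, so the filtered counts of each class restate where the inputs had peaks. The rest of the 55 carried neither symbol and were not placed in a class, so these class counts leave them out.

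**Figure D5:**
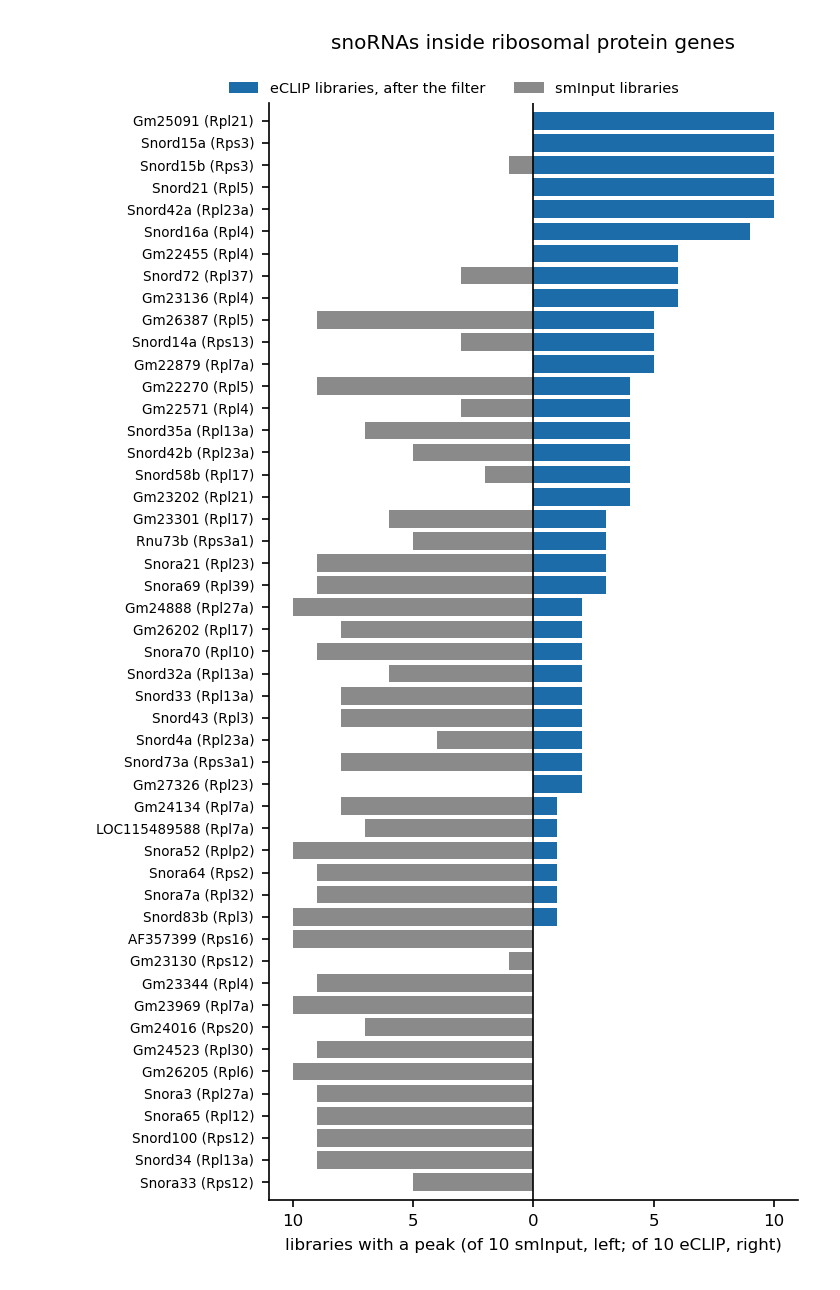
Number of libraries with a peak centred in each of 49 snoRNAs inside ribosomal protein genes (host in parentheses); bars to the left count smInput libraries, bars to the right eCLIP libraries after the smInput filter, each of 10. The 6 snoRNAs at the top have filtered peaks in 9 or 10 eCLIP libraries and at most 1 input library. The filter drops peaks that overlap input peaks, so left and right bars are not independent.

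The most recurrent were Snord42a in Rpl23a, Gm25091 in Rpl21, Snord15a and Snord15b in Rps3 and Snord21 in Rpl5, each in 10 libraries, and Snord16a in Rpl4 was seen in 9. Snord42a held 326, 944, 95, 177, 620 and 67 reads in Lin- libraries 1 to 6 and 50, 237, 40 and 126 in CD11b+ libraries 1 to 4. Snord15b held 103, 643, 33, 97, 362 and 16 reads in Lin- and 31, 133, 18 and 81 in CD11b+ libraries. Both were highest in Lin- libraries 2 and 5, and the cell types overlapped.

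Snord14a in Rps13, a U14-type snoRNA, went the other way. It had filtered peaks in 4 of 4 CD11b+ libraries and 1 of 6 Lin- libraries, while before the filter it was called in 6 of 6 Lin- libraries and had input peaks in 3 Lin- and 0 CD11b+ inputs. Snord35a in Rpl13a was kept in 4 Lin- and 0 CD11b+ libraries, with input peaks in 3 Lin- and 4 CD11b+ inputs. Snord72 in Rpl37 reached 1667 reads in a Lin- and 475 in a CD11b+ library. The 8 members with input peaks in 10 of 10 inputs were all hosts, among them Rpl3, Rpl6, Rpl7a, Rpl27a, Rplp2 and Rps16. Of 386 filtered member peaks in snoRNA genes, 92 overlapped a peak listed again under the ID of the snoRNA.

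The CA-rich 6-mers were rare in these peaks. ACACAC or CACACA, which overlap each other by 5 letters, were searched on the transcribed strand of each filtered peak. They were present in 0.977% ± 0.915 of peaks on members and 10.2% ± 6.08 of peaks on other genes (SD, n = 5), lower on members in 5 of 5 biological libraries, with a mean difference of -9.18 percentage points (exact sign-flip permutation test, p = 0.0625, adjusted 0.109). In all, 10 of 1057 member peaks held one. They were 4 intron peaks of Rps19, 2 intron peaks of Rpl22l1 and 3 in an annotated 3′ UTR of Rpl9. The other 1 lay outside the transcripts of Rpl11. Without snoRNA peaks the difference was -8.88 and within 30 nt of the peak centre, whatever the width of the peak, -9.77 percentage points.

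Base composition around intron peaks was compared after the data were seen. In the 60 nt around the centre of intron peaks, T made up 28.6% ± 1.78 on members and 26.6% ± 2.62 on other genes, and A 20.5% ± 1.60 and 22.3% ± 1.18 (SD, n = 5), T higher and A lower on members in 10 of 10 libraries (exact sign-flip permutation test over 5 biological libraries, unadjusted p = 0.0625 for each). The summed share of C and A was 45.4% ± 1.77 on members and 46.6% ± 3.499 on other genes (p = 0.4375, exact sign-flip permutation test).

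Other genes of the translation machinery were counted in the same way, with no test between lists. Filtered peaks were found on 35 of 75 mitochondrial ribosomal protein genes and 50 of 78 initiation and elongation factor genes in Lin- cells, against 75 of 82 members. In CD11b+ cells the counts were 19 of 77 and 34 of 77, against 51 of 82. Outside snoRNA genes they were 35 of 75 and 49 of 78 in Lin- cells, against 61 of 82 members, and 19 of 77 and 32 of 77 in CD11b+ cells, against 36 of 82 members, so that the factors (41.6%) and the members (43.9%) were close in CD11b+ cells. Their median mean counts were lower, 804 and 2525 in Lin- cells and 484 and 1460 in CD11b+ cells, so the lists differ in expression. The 18 other transcripts with a TOP motif had a median of 11610 in Lin- cells. With snoRNA peaks included, 16 of them had a peak in Lin- and 13 in CD11b+ cells. Outside snoRNA genes these counts fell to 15 and 9. Eef1a1, Npm1, Tpt1, Pabpc1 and Vim kept such a peak in both cell types. Eef2 kept one in Lin- cells alone, and Gas5 kept none.

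The rule left out 5 ribosomal protein genes with other symbols. Fau, made as a fusion with a ubiquitin-like protein, and Rack1, a scaffold on the small subunit, had filtered peaks in both cell types. Rps27rt had them in Lin- and Rpl36al in CD11b+ cells. Exon peaks were found on 4 of the 5 genes of this kind in Lin- cells and on 3 in CD11b+ cells, against 45 and 11 of 82 members.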

How the data were processed

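The 10 eCLIP and 10 smInput libraries and 2 RNA-seq tables (6 libraries each) were used as deposited. Per the labels and methods, the authors mapped RNA-seq reads to mm10 with STAR 2.5.3a and masked repeats with Bowtie2. The eCLIP aligner is not given in the sources used here. Each library had its own CLIPper peak list, and the authors dropped eCLIP peaks that overlapped smInput peaks. The track lines show other deduplication and peak calling settings for inputs than for eCLIP. The deposited value of each peak was read as the CLIPper p-value, at most 0.05, and the last number of the peak name as its reads, since neither column is named. The authors deposited, per gene and cell type, a mean normalized count as a coverage signal, made with DESeq2 size factors over both genotypes. Their columns of fold changes, errors, test statistics and p-values between genotypes, and of peak flags, were not used.

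Peaks went to genes by Ensembl ID. All members matched GENCODE M21 (GRCm38). The peak centre decided the place, in this order: snoRNA or scaRNA gene (GENCODE and RefSeq, the latter added after the data were seen), exon, intron. A centre counted as exonic where any basic transcript of the gene had an exon there, with coding sequence taken before UTR. Of 176145 peaks in all files, 1838 carried an ID with no basic transcript. Overlapping filtered peaks were merged into sites. Biological libraries were compared by exact two-sided permutation of libraries or signs, with Benjamini-Hochberg adjustment over 7 tests. Each eCLIP library was paired with the smInput of the same number and cell type in the labels, and members with other genes of the same library. Technical libraries were shown but not tested. Where nothing names separate animals or cultures, p-values measure the spread between libraries. Wilson intervals and floors (3 counts) cover counting error only.

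Some genes that these rules name, 4 members among them, are not reported here by name and are left out of the 2 figures with gene names, while all counts include them. The members and lists were chosen with earlier results of these data known. Genes named in the text were those with a filtered peak in at least 3 Lin- or 2 CD11b+ libraries, the 5 with most sites, the 5 most often in smInput, the 5 highest and lowest means, l or l1 variants with their namesakes, and hosts of the snoRNAs seen most often. Settings were Python 3.11.15, pandas 2.3.3, SciPy 1.17.1 and pysam 0.24.0, and the exact tests were tested on simulated data.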

Additional observations from a re-analysis of the deposited data

Results flagged for a closer look

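Filtered peaks were also listed under ribosomal protein pseudogenes, which no comparison above used. They numbered 8, 55 and 10 in Lin- eCLIP libraries 1, 2 and 3 and 9, 31 and 1 in libraries 6, 5 and 4, against 0 in every smInput library and 0 or 1 in the CD11b+ eCLIP libraries. Libraries 2 and 5, which had the most exon peaks on the members, also had the most pseudogene peaks. Processed pseudogenes copy spliced mRNA, and how reads were divided between them and their parents was not tested.

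A check of 32 sets of 4 to 6 libraries for a sample far from the rest marked 4. Its cutoff marks about 1 in 20 sets of independent, normally spread values. That rate does not hold where the other libraries are tied, as for CD11b+ eCLIP 2, and the sets share libraries. Lin- smInput 5 had peaks on 8 members, against 22 to 26 in the other Lin- inputs, and held only 217 peaks in all. Lin- eCLIP 6 had peaks on 60 members before the filter, against 69 to 73 in the other 5. CD11b+ eCLIP 2 held the CA 6-mers in 1.30% of its member peaks (1 peak) and 0 pseudogene peaks, where the other 3 had 0% and 1 peak each.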

How the results depend on the processing

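Read depth is unknown, peak numbers differ between libraries, and neither the sign-flip test over 5 pairs nor the test of 3 against 2 libraries can reach 0.05. Stricter and looser settings kept the Lin- count of members with a peak between 61 and 80. The CD11b+ count of 51 fell to 28 where 2 libraries were required and to 22 at a CLIPper p below 0.001, and with 1 biological library left it was 25 to 28. With technical libraries added as if independent, 4 of the 5 planned tests passed 0.05, the exon share (-1.05, p = 0.676, exact permutation test) being the exception: the Lin- minus CD11b+ difference was 1.54 percentage points, eCLIP minus smInput -1.33, removal by the filter 43.0 and the 6-mer difference -10.9. The replicate block pairs each eCLIP library with its own input, or members with other genes of the same library. Without that block, removal (42.5) and the 6-mers (-9.18) passed 0.05 at p = 0.00794 each (exact permutation test), and the block changed no other call. The exon difference of -0.54 had no stable sign: it was 1.01 with any overlap with an exon, 13.4 without snoRNA peaks, -8.98 at a CLIPper p below 0.001 (p = 0.0625, exact sign-flip permutation test, the smallest it can give), and -3.01 to 3.201 when single biological libraries were left out (3.201 without CD11b+ library 1, 0.32 without Lin- library 1). Leaving out snoRNA peaks, an alternative added after the data were seen, also reversed eCLIP minus smInput (0.816) and removal by the filter (-4.76).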
